A study of Mus musculus with 6 samples.

Results

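The genes described here are 10 regulators of skeletal muscle formation and of myoblast fusion, measured by bulk RNA-seq in the anterior and posterior palate of the mouse embryo. They are the progenitor factors Pax3, Pax7, Msc and Tcf21, the commitment factors Myf5 and Myod1, the differentiation factors Myog and Myf6, and the fusion proteins Mymk and Mymx. The 10 genes were matched by symbol among 56691 gene identifiers in the count files. They were put together with the difference between the 2 regions already known, so their own anterior and posterior values are given as a description, without p-values. Their number among the genes called in the fit over all genes is given once beside the background share, and nothing is inferred from it.

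The study dissected palatal shelves of C57BL/6J embryos at embryonic day 14 and sequenced the anterior and the posterior end separately, with 3 libraries of each. The labels name no allele and no treatment, and all 6 libraries share strain and stage, so region is the labelled factor that separates the groups. Posterior replicates 2 and 3 also differ from the other libraries in their share of reads mapping to several places, as given below. The study calls the libraries biologically independent samples, and the labels do not say whether a library came from 1 embryo or from a pool. Fewer muscle cells and less RNA per muscle cell cannot be told apart in such bulk samples.

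Skeletal muscle of the head forms from cranial mesoderm, whereas the palatal mesenchyme around it is mostly of neural crest origin. Muscle progenitors are held in an undifferentiated state by paired-box factors such as Pax3 and Pax7, or, in the pharyngeal arches, are specified by the basic helix-loop-helix factors Msc (also called MyoR) and Tcf21 (capsulin). Myf5 and Myod1 commit these cells to the muscle lineage, Myog drives their exit into differentiation, Myf6 (MRF4) acts in differentiating and mature muscle, and the membrane proteins Mymk (myomaker) and Mymx (myomixer) then fuse myoblasts into multinucleated fibres. Pax3 is also a factor of neural crest cells. The posterior palate gives rise to the soft palate, which contains skeletal muscle, and the anterior palate to the hard palate.

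The promoters of Myog and Myf5 are shown because these genes stand at the differentiation and commitment steps. They were searched for DNA motifs bound by known muscle regulators. Of the 10 genes, 4 had a promoter in the RefSeq table used (Myog, Pax7, Tcf21 and Myf5), with coordinates in GRCm38.p6. Each sequence is the 250 bases before the RefSeq start of transcription, written 5′ to 3′ on the strand of the gene. Capitals mark matches to the E-box (CANNTG, bound by basic helix-loop-helix factors), a MEF2 core pattern (CTANNNNTA) or the MEF3 motif (TCAGGTTTC). Each was searched on both strands. The MEF2 core pattern leaves its 4 middle bases free, so a match need not be a MEF2 motif. The Myog promoter is at chr1:134289754-134290003 on the + strand, and the Myf5 promoter at chr10:107486135-107486384 on the - strand.
Myog: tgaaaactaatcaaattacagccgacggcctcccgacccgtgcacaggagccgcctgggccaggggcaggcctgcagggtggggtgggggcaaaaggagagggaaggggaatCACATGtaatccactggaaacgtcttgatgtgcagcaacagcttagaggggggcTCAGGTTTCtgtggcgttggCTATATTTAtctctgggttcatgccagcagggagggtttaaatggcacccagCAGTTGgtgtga
Myf5: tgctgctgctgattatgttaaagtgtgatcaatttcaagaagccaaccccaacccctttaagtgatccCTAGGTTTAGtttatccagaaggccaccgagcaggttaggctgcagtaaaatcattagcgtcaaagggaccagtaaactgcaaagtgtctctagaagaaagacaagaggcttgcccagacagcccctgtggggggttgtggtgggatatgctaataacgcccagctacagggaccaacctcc

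The Myog window held all 3 motifs. An E-box (CACATG) lay 138 to 133 bases before the start, the MEF3 motif 84 to 76, a MEF2 core (CTATATTTA) 64 to 56 and another E-box (CAGTTG) 12 to 7. The GENCODE M21 start of Myog is 15 bases upstream of the RefSeq start, so the E-box nearest the start is inside the gene in that annotation. The Myf5 window held no E-box and no MEF3 motif. The MEF2 core pattern was matched there on both strands, overlapping, 182 to 173 bases before the start. The Myf5 site CTAGGTTTA has G bases in the free middle positions, where the Myog site CTATATTTA has only A and T. The windows of Pax7 and Tcf21 held none of the 3 motifs, and that of Pax7 precedes a RefSeq start that lies 560 bases inside the GENCODE gene. Over 32851 promoter windows of the same length, 66.2% held an E-box, 19.0% a match to the MEF2 core pattern and 0.387% a MEF3 motif. These matches describe letters in the windows and not binding.

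The libraries held 11378736 to 15172733 reads counted on genes, and levels are given in CPM, counts relative to library sizes scaled by edgeR's TMM factors. A gene without any read could still have had up to 3 counts, which is 0.206 to 0.260 CPM here. These limits and the intervals below cover counting error only. The region labels were checked with known regional genes. Shox2 and Msx1 stood at 386 ± 31.7 and 204 ± 70.6 CPM in the anterior palate (SD, n = 3) against 11.7 ± 6.09 and 1.15 ± 0.193 CPM in the posterior palate. Meox2 was on the other side, with 7.83 ± 0.958 CPM in the anterior against 192 ± 47.4 CPM in the posterior palate, as was Tbx22 with a log2 fold change of 4.58. Posterior replicates 2 and 3 stood apart from the other libraries, with 6.12% and 5.94% of reads mapping to several places against 8.45% to 8.77%. Since both are posterior, values from posterior replicate 1 against the anterior libraries are given for Pax3 and for the named pathway genes whose call or direction they change.

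Transcripts of 9 of the 10 genes were scarce in the anterior and present in the posterior palate, and the exception was Pax3, which was higher in the anterior palate in every library. The values of the 10 genes did not overlap between the regions. Of 15673 genes that had at least 10 counts in at least 3 libraries, 14.7% had higher values in all posterior than in all anterior libraries and 13.4% the reverse. The 8 members that met this minimum had a median log2 fold change (posterior over anterior) of 5.19, against -0.0040 over all genes tested. By edgeR's quasi-likelihood test at an adjusted p of 0.05, 7 of the 8 were called higher in the posterior palate, where 4.87% of all genes tested were, and 1 higher in the anterior palate, where 2.59% were. Because the set was chosen on this contrast, these counts describe the choice. Tcf21 and Myf6 did not reach the minimum count and were not tested.

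**Figure D1:**
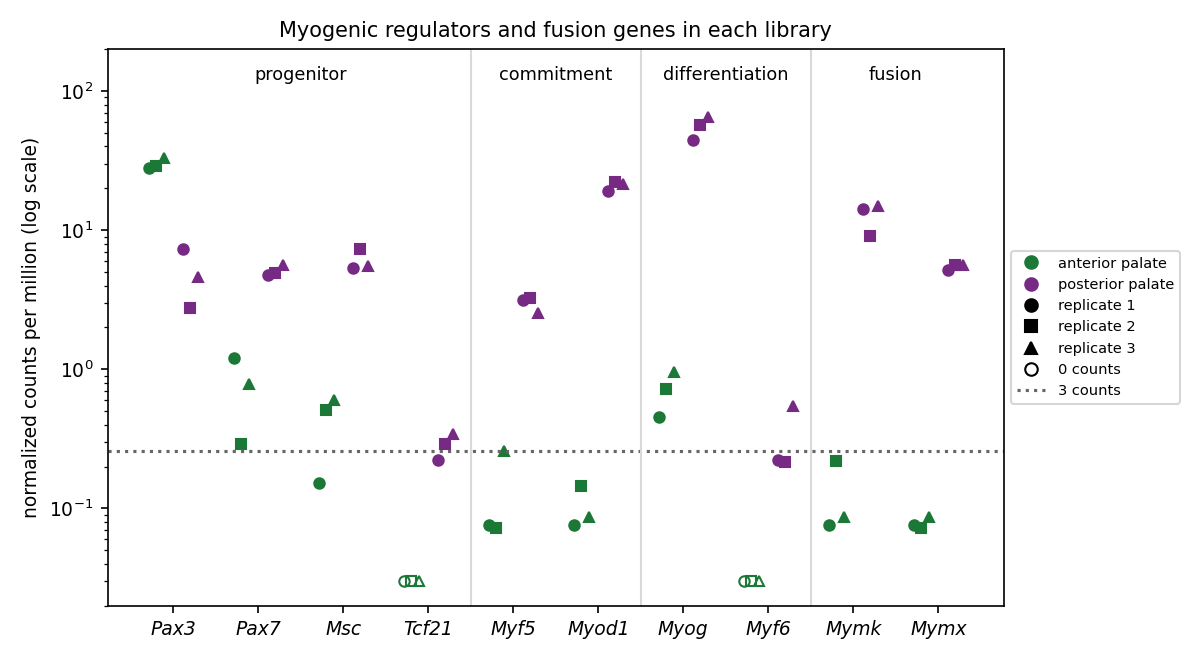
Normalized level in CPM (log axis) of the 10 genes in the 3 anterior (green) and 3 posterior (purple) libraries, ordered by stage. Symbols mark the replicate number, open symbols at the bottom stand for 0 counts, and the dotted line is the level of 3 counts in the smallest library; Pax3 is the gene whose green symbols lie above the purple ones.

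Pax3 (ENSMUSG00000004872.16) is a paired-box factor of trunk and limb muscle progenitors, neural crest and Schwann cell precursors, and lies on chr1:78101267-78197134 on the - strand of GRCm38. Its level was 28.2, 29.1 and 32.9 CPM in anterior replicates 1, 2 and 3 and 7.34, 2.75 and 4.59 CPM in posterior replicates 1, 2 and 3. All anterior libraries were above all posterior ones. The SD was similar in the anterior and posterior libraries, 2.50 and 2.31 CPM, around means of 30.0 and 4.89 CPM. The summed counts, 1151 and 203, gave a level 6.15-fold higher in the anterior palate after scaling for library size (95% exact interval 5.30 to 7.18). The fitted log2 fold change was -2.62 (standard error 0.31). With posterior replicate 1 as the sole posterior library it was -2.03, and without that library it was -3.02, so the size of the Pax3 difference depended on the posterior library used.

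Pax7 (ENSMUSG00000028736.14), the paired-box factor of muscle progenitors and later of satellite cells, lies on chr4:139737062-139833528 on the - strand. Its level was 1.21, 0.291 and 0.779 CPM in the anterior and 4.79, 4.91 and 5.62 CPM in the posterior libraries. The regions did not overlap, and the anterior libraries held 16, 4 and 9 counts, so the transcript was detected in each of them above the limit of 3 counts. The posterior level was 6.80-fold higher (4.60 to 10.4) by summed counts, and the fitted log2 fold change was 2.74 (standard error 0.41). Pax7 and Pax3 are paralogs, with identical bases at 71.2% of the aligned positions of the longer coding sequence, and they differed in opposite directions. Their longest shared run of coding sequence was 26 bases.

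Msc (ENSMUSG00000025930.7, chr1:14753346-14755992, - strand) is a pharyngeal muscle progenitor factor that also represses muscle gene transcription in cell culture. It held 2, 7 and 7 counts in the anterior libraries, or 0.152, 0.509 and 0.606 CPM, and 71, 102 and 81 counts in the posterior libraries, or 5.31, 7.37 and 5.55 CPM. The lowest posterior value was far above the highest anterior one. The ratio by summed counts was 14.6 (8.83 to 26.0), and the fitted log2 fold change was 3.83 (standard error 0.40). Msc overlaps the antisense gene Gm9947, and the unstranded counts of Msc were 64.4% of its reverse-stranded counts over all libraries, the lowest such share among the 8 genes with counts in both regions.

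Tcf21 (ENSMUSG00000045680.9, chr10:22817281-22820174, - strand), which acts with Msc in pharyngeal muscle, was near the detection limit. It had 0 counts in each anterior library and 3, 4 and 5 counts in the posterior libraries, or 0.225, 0.289 and 0.343 CPM. Every posterior library was at or just above 3 counts, so the ordering of the regions rests on 12 reads. Against a limit of 3 counts over the anterior group, the posterior level was at least 3.68-fold higher when the 12 reads are taken as they stand, and the exact 95% interval of 12 against 0 counts had a lower end of 2.56-fold. Tcf21 overlaps the antisense gene Gm10824, and 1 of the 13 posterior reads at Tcf21 was on the other strand.

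At the commitment step, Myod1 was the more abundant factor and Myf5 the less abundant one. Myf5 (ENSMUSG00000000435.2, chr10:107482908-107486134, - strand), the earliest of the myogenic basic helix-loop-helix factors in the trunk, held 1, 1 and 3 counts in the anterior and 42, 45 and 37 counts in the posterior libraries. This corresponded to 0.0759, 0.0727 and 0.260 CPM against 3.14, 3.25 and 2.54 CPM. All anterior libraries were at or below the limit of 3 counts, and the posterior libraries lay within a narrow range. The ratio of summed counts was 22.8 (9.53 to 71.6), and the fitted log2 fold change of 4.41 (standard error 0.44) depends on the prior count at such low anterior values.

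Myod1 (ENSMUSG00000009471.5, chr7:46376474-46379099, + strand), the factor that can convert fibroblasts to muscle cells, held 1, 2 and 1 counts in the anterior and 257, 307 and 315 counts in the posterior libraries. The posterior levels of 19.2, 22.2 and 21.6 CPM contrasted with 0.0759, 0.145 and 0.0865 CPM. The 3 posterior libraries were alike and the anterior libraries below the limit of 3 counts. The ratio of summed counts was 202, the highest among the 8 genes with anterior counts, with an interval of 78.8 to 745 that rests on 4 anterior reads and overlaps those of Myog, Mymk and Mymx. The fitted log2 fold change was 7.54 (standard error 0.25).

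Myog (ENSMUSG00000026459.6, chr1:134289989-134292548, + strand), whose promoter is printed above, is the factor without which myoblasts fail to differentiate. Its counts were 6, 10 and 11 in the anterior and 599, 796 and 958 in the posterior libraries, or 0.455, 0.727 and 0.952 CPM against 44.8, 57.5 and 65.7 CPM. Unlike Myf5 and Myod1, Myog was above the limit of 3 counts in each anterior library, so the anterior dissections held some of its transcript. The ratio of summed counts was 80.3 (55.0 to 122), and the fitted log2 fold change was 6.30 (standard error 0.26).

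Myf6 (ENSMUSG00000035923.5, chr10:107492853-107494737, - strand), a factor of later muscle differentiation, lies 6718 bases upstream of Myf5. It had 0 counts in each anterior library and 3, 3 and 8 counts in the posterior libraries, or 0.225, 0.217 and 0.549 CPM. As for Tcf21, the posterior values were close to the detection limit, and posterior replicate 3 held most of the reads. Against 3 counts over the anterior group the posterior level was at least 4.30-fold higher when the 14 reads are taken as they stand, and the exact interval of 14 against 0 counts had a lower end of 3.06-fold. The neighbouring Myf5 and Myf6 thus had unequal posterior levels, which are given per length below.

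Both fusion genes had at least 1 count in every library. Mymk (ENSMUSG00000009214.10, chr2:27061636-27072179, - strand) held 1, 3 and 1 counts in the anterior and 191, 125 and 219 in the posterior libraries, or 0.0759, 0.218 and 0.0865 CPM against 14.3, 9.03 and 15.0 CPM. Posterior replicate 2 was the lowest of the posterior libraries. The ratio of summed counts was 98.6 (42.0 to 305). Mymx (ENSMUSG00000079471.5, chr17:45600971-45602102, - strand), a micropeptide that works with Mymk, held 1 count in each anterior library and 69, 78 and 82 counts in the posterior libraries. The posterior levels were 5.17, 5.64 and 5.62 CPM, nearly equal, and the ratio was 70.3 (23.8 to 344). The coding sequence of Mymx has 324 bases and that of Mymk 663.

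The myogenic regulatory factors have related sequences, so reads could in principle be shared among them. Identical positions made up 47.2% (Myod1 and Myog) to 58.7% (Myf5 and Myf6) of the longer coding sequence of each pair of the 4 factors, and the longest run of identical bases was 26, between Myf5 and Myod1. For Msc and Tcf21 the values were 62.5% and 15 bases. Over the 10 genes and 6 libraries, 41 reads were counted on the other strand beside 6057 on the strand of the gene.

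Levels of different genes were compared per length, as TPM, which scale counts to gene length and library size, with the exon length of each gene in GENCODE M21. In the posterior palate Myog was the highest of the 10 genes, at 136 ± 34.6 TPM (SD, n = 3; 97.9, 147 and 165 TPM in replicates 1, 2 and 3). Myod1 followed with 40.9 ± 6.30 TPM and Mymk with 30.3 ± 7.23 TPM, and the values of these 2 genes overlapped. Mymx stood at 19.3 ± 2.51 TPM, Msc at 8.68 ± 2.16 and Myf5 at 5.15 ± 0.724 TPM. Pax7 (3.16 ± 0.466 TPM) and Pax3 (2.78 ± 1.09 TPM) overlapped each other, and Myf6 (0.954 ± 0.584 TPM) and Tcf21 (0.443 ± 0.120 TPM) were at the bottom. Neighbours in this order other than Myod1 and Mymk, and Pax7 and Pax3, had ranges that did not overlap. In the anterior palate Pax3 stood at 16.4 ± 1.48 TPM, and the next highest was Myog at 1.60 ± 0.566 TPM.

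Summed by stage, the progenitor genes had similar totals in the 2 regions, 17.4 ± 1.71 TPM in the anterior and 15.1 ± 1.38 TPM in the posterior palate. The totals hide a different make-up, because Pax3 was the main part of the anterior sum and Msc the main part of the posterior sum. The commitment genes summed to 0.406 ± 0.162 TPM in the anterior and 46.1 ± 6.63 TPM in the posterior palate. The differentiation genes summed to 1.60 ± 0.566 and 137 ± 35.0 TPM, and the fusion genes to 0.538 ± 0.154 and 49.6 ± 7.28 TPM. In the posterior libraries the progenitor sum was therefore the lowest of the 4 stages and the differentiation sum the highest. Without Pax3 the 9 other genes summed to 3.55 ± 0.933 TPM in the anterior and 245 ± 46.3 TPM in the posterior palate.

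The posterior libraries were compared among themselves by setting each gene against Myog in the same library. Myod1 stood at 34.5%, 31.0% and 26.4% of the Myog TPM in posterior replicates 1, 2 and 3, with 95% counting intervals of 29.7% to 40.0%, 27.1% to 35.4% and 23.2% to 30.0%. Each pair of these intervals overlapped. Mymk was more uneven, at 31.5% (26.7% to 37.2%), 15.5% (12.8% to 18.8%) and 22.6% (19.4% to 26.2%) of Myog, and its 3 intervals did not overlap. Posterior replicate 2 thus had the least Mymk per Myog. In the same library, the summed CPM of 14 contractile muscle genes (such as the embryonic myosin Myh3 and cardiac actin Actc1) was 13.5 per CPM of Myog, against 24.4 and 22.3 in posterior replicates 1 and 3.

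Relative to Myog, the genes Mymx, Pax7, Msc and Myf5 differed less from library to library than Mymk did. Mymx stood at 16.8%, 14.3% and 12.5% of the Myog TPM in the 3 posterior libraries, and Pax7 at 2.73%, 2.18% and 2.18%. Msc stood at 6.96%, 7.52% and 4.96%, and Myf5 at 5.03%, 4.06% and 2.77%. Within each of these 4 genes the 3 counting intervals overlapped in every pair, while Pax3, at 3.95%, 1.15% and 1.69%, was highest in posterior replicate 1. The values for Tcf21 and Myf6 were all below 1% and had intervals wider than the differences between libraries.

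**Figure D2:**
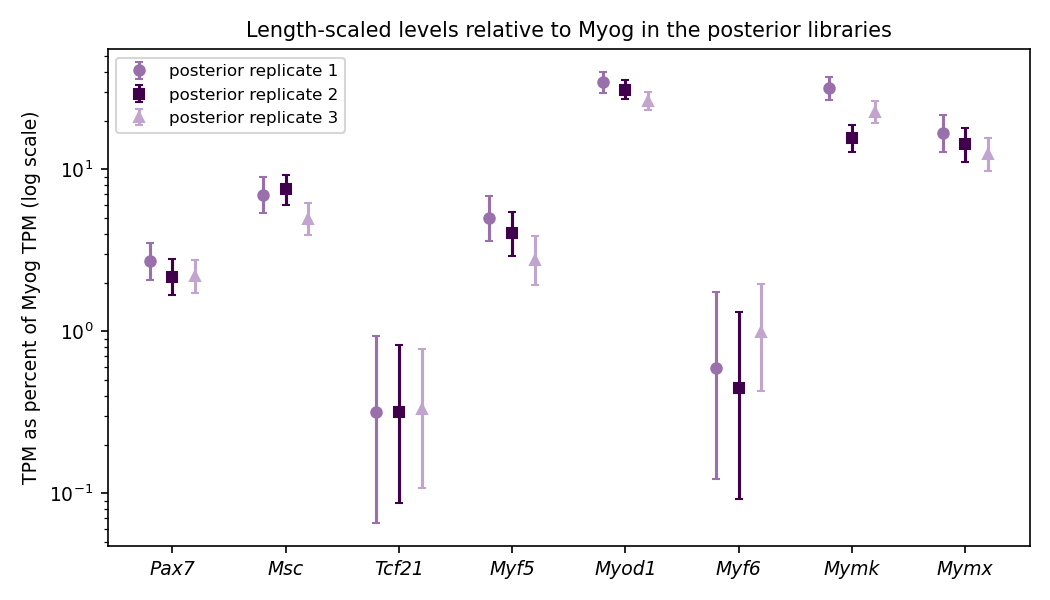
Level of 8 genes as a percent of the Myog TPM (log axis) in posterior replicates 1, 2 and 3, with 95% counting intervals. Mymk varies from 15.5% to 31.5% with intervals that do not overlap, whereas those of Mymx and Pax7 overlap in all 3 libraries.

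The fitted changes of the 8 genes tested were compared over other ways of processing the counts. Each kept its sign in every setting in which it was tested. Myod1 ranged from 7.36 to 7.86 on the log2 scale, Mymk from 6.26 to 7.15, Myog from 5.97 to 6.54 and Mymx from 5.88 to 6.13. The progenitor and commitment genes ranged from 4.12 to 5.16 for Myf5, 3.43 to 4.15 for Msc, 2.34 to 3.27 for Pax7 and -3.02 to -2.03 for Pax3. The ends of the Pax3 range were the value without posterior replicate 1 and the value with a term for the libraries of low multimapping, which leaves posterior replicate 1 to set the difference.

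**Figure D3:**
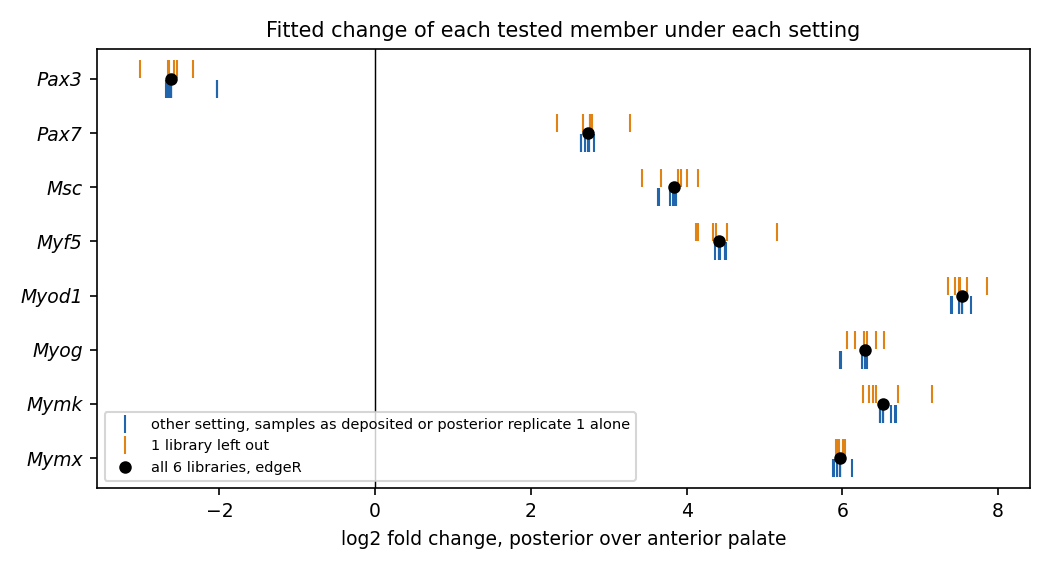
Fitted log2 fold change (posterior over anterior palate) of the 8 tested genes with all 6 libraries (black), under other settings (blue) and with 1 library left out (orange). Pax3 stays between -3.02 and -2.03, and the other 7 genes stay above 0.

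The genes whose profile over the 6 libraries was most like that of each member were found by the root mean square difference of log2 CPM after each gene was centred on its mean, among all genes tested. Pax3 was nearest to the long noncoding RNA 5430421F17Rik (0.141), Ly6d (0.214) and Acp5 (0.319). Pax7 was nearest to Stac3 (0.235), Fam180a (0.257) and Wnt16 (0.335), and Msc to Il1rapl2 (0.165), Fgfr4 (0.305) and Ache (0.320). The nearest genes to Myf5 were Ache (0.297), Tmeff2 (0.305) and Cntnap5a (0.313).

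Myod1 and Myog had the same 3 nearest genes, the calcium pump gene Atp2a1 (0.457 and 0.309), the methyltransferase gene Smyd1 (0.415 and 0.372) and Actc1 (0.375 and 0.443). Mymk was nearest to the troponin genes Tnnc1 (0.318) and Tnnc2 (0.329) and to Lmod3 (0.354), which encodes a thin filament protein. Mymx was nearest to Tbx22 (0.223), Kera (0.241) and Apobec2 (0.250). The log2 values include a prior count of 2, which flattens differences of genes with few counts, so that Mymx lay near Tbx22 although their fitted log2 fold changes were 5.97 and 4.58. Among the members themselves Myod1 and Myog were the closest pair (0.320), followed by Msc and Myf5 (0.358), and Pax3 was at least 2.75 from each of the others. These distances reflect the difference between the regions first, since the 6 libraries fall into 2 groups.

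Other genes known to act with the members were taken as a list of 53, of which 49 were tested. Of these, 11 were called higher in the posterior palate (against 4.87% of all genes tested) and 6 higher in the anterior palate (against 2.59%), 32 were not called, and the median log2 fold change was 0.19. The list was chosen with earlier results of these libraries known, and it holds none of the 10 members. Adjusted p-values below are from edgeR's quasi-likelihood test over all genes tested.

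Of the upstream factors of head and trunk muscle, 8 of 10 were tested, 1 was called higher in the posterior and 3 in the anterior palate. Isl1, a factor of pharyngeal mesoderm, stood at 11.6, 11.9 and 13.4 CPM in the anterior and 2.62, 3.83 and 2.67 CPM in the posterior libraries, without overlap (log2 fold change -2.01 with a standard error of 0.20, adjusted p = 0.00135). The transcriptional cofactor Eya1 had a log2 fold change of -1.03 that did not pass the test (adjusted p = 0.0576). It passed in 6 other settings and not in 9, and those in which it passed include DESeq2 (adjusted p = 0.00197), posterior replicate 1 as the sole posterior library (-1.67, adjusted p = 0.00142) and the fit without that library (-0.79, adjusted p = 0.00565). Eya4 was not called at 0.31. Lbx1, the factor of migrating limb and tongue muscle precursors, and Lhx2 had too few counts to be tested.

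Of the ligands and receptors of myogenic cells, 9 of 10 were tested and 2 were called, both higher in the posterior palate. Fgfr4, a growth factor receptor of myoblasts, stood at 0.152, 0.872 and 0.779 CPM in the anterior and 6.44, 8.09 and 10.5 CPM in the posterior libraries, without overlap (log2 fold change 3.78 with a standard error of 0.46, adjusted p = 0.00352). Igf2, a growth factor made by many embryonic tissues, stood at 115 ± 8.98 and 197 ± 37.9 CPM (log2 fold change 0.78, adjusted p = 0.0237), and its call was lost when any of 5 libraries other than posterior replicate 1 was left out (adjusted p up to 0.12). Cxcl12 and Cdon, which guide precursors and promote commitment, were not called (log2 fold changes -0.07 and 0.40). Mstn, the muscle growth inhibitor, was not tested and is named after its values were seen. It held 3, 2 and 0 counts in the anterior and 8, 86 and 88 counts in the posterior libraries, and posterior replicate 1 was far below the other posterior libraries. Myod1 and Myog, at 19.2 and 44.8 CPM in that library, did not show such a gap.

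Among the partners and inhibitors of the basic helix-loop-helix factors, 10 of 10 were tested, 1 was called higher in the posterior and 2 in the anterior palate. Twist1, which inhibits the myogenic factors and is abundant in mesenchyme, stood at 174 ± 12.2 and 291 ± 40.8 CPM (log2 fold change 0.74, adjusted p = 0.0129). Its call was lost without anterior replicate 1 or 2 (adjusted p = 0.0801 and 0.0787). Hey1 and Heyl, repressors induced by Notch signalling, were higher in the anterior palate, by -1.36 (adjusted p = 0.000897) and -0.89 (adjusted p = 0.011) on the log2 scale. The call of Heyl was lost without anterior replicate 2 or 3 (adjusted p = 0.0673 and 0.0522). The E proteins Tcf3 and Tcf4, with which the members of this protein class pair, were not called (-0.04 and 0.16), and neither were Tcf12, Id1, Id2, Id3 and Mdfi.

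Of the partners and targets of differentiation, 3 of 10 genes tested were called, all higher in the posterior palate. Smyd1 held 0, 1 and 2 counts in the anterior and 282, 246 and 432 counts in the posterior libraries, a ratio of 295 (101 to 1432; adjusted p = 0.000166), above that of Myod1 with overlapping intervals. Vgll2, a cofactor of head muscle, had a ratio of 50.1 (22.7 to 137; adjusted p = 0.000451). Des, the intermediate filament protein of muscle, stood at 4.02, 3.71 and 2.77 CPM in the anterior and 52.3, 38.2 and 44.6 CPM in the posterior libraries (log2 fold change 3.68 with a standard error of 0.19, adjusted p = 0.00014). Cdkn1c and Nfix, which are abundant outside muscle, were not called (log2 fold changes 0.16 and 0.19), nor were Mef2a, Mef2c and Mef2d, whose products bind the MEF2 motif.

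Of the genes of adhesion and fusion, 12 of 13 were tested, 4 were called higher in the posterior and 1 in the anterior palate. Cdh15 (M-cadherin) stood at 1.37, 1.45 and 1.21 CPM in the anterior and 19.1, 16.2 and 24.6 CPM in the posterior libraries (log2 fold change 3.88 with a standard error of 0.22, adjusted p = 0.000166). Cav3, the caveolin of muscle, held 2, 1 and 5 anterior and 60, 40 and 65 posterior counts, a ratio of 19.0 (9.42 to 44.7; adjusted p = 0.00308). The adhesion proteins Jam2 and Jam3 were higher by 1.45 (adjusted p = 0.00572) and 0.55 (adjusted p = 0.0218) on the log2 scale, and the call of Jam3 was lost without any 1 of the anterior libraries (adjusted p up to 0.116). Elmo1, which signals to the cytoskeleton during fusion, was higher in the anterior palate (log2 fold change -0.77, adjusted p = 0.00572). Kirrel and Ncam1 were not called (0.44 and -0.31).

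Several pathway genes that were not called depended on the posterior libraries used. With posterior replicate 1 as the sole posterior library, Cxcl12 (-0.61), Ncam1 (-0.75), Tcf4 (0.52) and Nfix (0.45) passed the test, as 8.40% of all genes did, and the log2 fold changes of Eya4, Kirrel and Tcf3 turned to -0.17, -0.19 and 0.049. Cdon stood at 0.011 and the called gene Igf2 at 0.41 in this setting. Without posterior replicate 1, Eya4 (0.50), Cdon (0.56) and Kirrel (0.67) passed the test besides Eya1, in a setting in which 46.6% of all genes did. The posterior libraries left there are those of low multimapping, so region and that trait cannot be told apart.

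**Figure D4:**
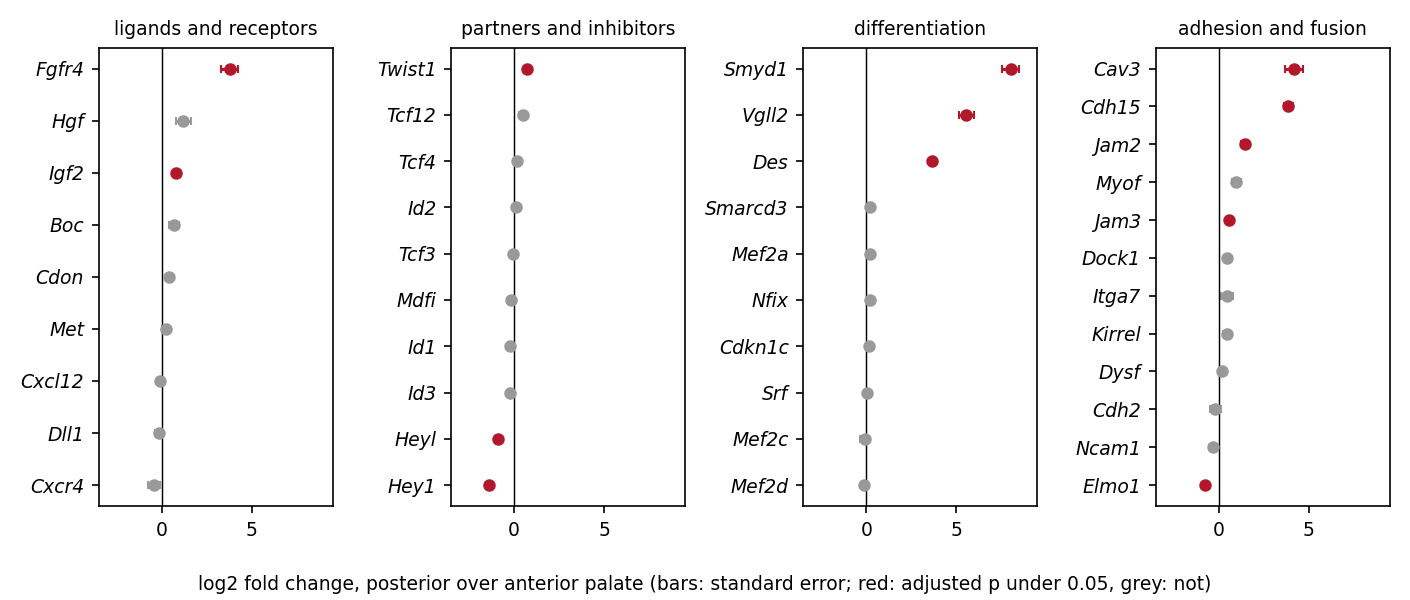
Log2 fold change (posterior over anterior palate, bars show the standard error) of 41 tested pathway genes in 4 groups, without the upstream factors, with called genes in red and the others in grey. The 10 red points right of 0 include Smyd1 and Vgll2 at 8.03 and 5.56, and the 3 red points left of 0 include Hey1 at -1.36.

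Markers of other cell types were measured beside the members. The 14 contractile muscle genes were all called higher in the posterior palate, and their summed level was 22.2 to 27.2 CPM in the anterior and 776 to 1466 CPM in the posterior libraries. Of 4 palatal mesenchyme genes, Pdgfra was called higher in the posterior and Prrx1 higher in the anterior palate, and their sum was 1468 to 1533 CPM against 968 to 1360 CPM. Of 6 glial genes, which bear on Pax3 as a factor of Schwann cell precursors, 1 was called (Erbb3, higher in the posterior palate), Sox10 stood at 5.33 ± 0.150 and 5.15 ± 1.17 CPM, and the sums overlapped (54.1 to 60.8 against 60.7 to 86.6 CPM). Of the 4 neuronal, 4 endothelial and 4 epithelial markers 0 were called by edgeR, 4 of the 12 had an unadjusted p under 0.05, and DESeq2 called 3 (Elavl3 and Kdr higher in the posterior, Krt5 higher in the anterior palate). The summed levels of these lists overlapped between the regions. The neuronal sum was 37.1, 228 and 15.9 CPM in posterior replicates 1, 2 and 3, so posterior replicate 2, the library with the least Mymk per Myog, held the most neuronal transcript. The part of these other cell types in the members' levels was not tested.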

How the data were processed

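Bulk RNA-seq of 3 anterior and 3 posterior palate libraries was analysed, grouped by the tissue label. As deposited, each library's file holds raw read counts by Ensembl gene, unstranded and for each strand, without normalization, in the layout that STAR writes. The submitters' processing notes name mm10, HISAT2, StringTie and DESeq2 1.30.1, and the annotation release is not given in the sources used here. The reverse-stranded counts were used, which were 18.95 to 23.1 times those of the other strand. Reads mapping to several places (5.94% to 8.77%) and unmapped reads (2.71% to 4.65%) stayed out. Of 56691 identifiers, 52073 matched a GENCODE M21 symbol with versions dropped, and 35 matched with the version kept, so positions and lengths are those of M21. Replicates differed by more than sampling noise (chi-square per gene 3.48 to 61.3).

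The 10 members and all gene lists were chosen with earlier results of these data known. Genes reaching 10 counts in 3 or more libraries were fitted with edgeR 4.0.16 (R 4.3.3, TMM, quasi-likelihood test, region as the term, Benjamini-Hochberg adjustment over all genes tested, threshold 0.05). CPM and TPM were computed here. Intervals of count ratios and of percentages of Myog are exact Clopper-Pearson intervals at 95% and cover counting error only. Promoter letters came from RefSeq (GRCm38.p6) and coding sequences from GENCODE M21 (longest coding sequence of each gene), aligned with Biopython 1.88. A planned comparison of protein sequences was replaced by that of coding sequences. The fits were tested on simulated data.

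All members were named, and in each pathway group up to 4 called genes in each direction by adjusted p and up to 2 uncalled genes with the highest mean. The 3 nearest genes were named for each tested member. Uncalled genes listed without values, Mstn, Lbx1, Lhx2 and the marker genes Pdgfra, Erbb3, Elavl3, Kdr and Krt5 were added after their values were seen. The alternatives were DESeq2 1.42.0, RLE size factors, library size without TMM, every gene with a read, a minimum of 10 counts in each library, the unstranded columns, a block for the replicate number, a term for the libraries of low multimapping, and leaving out each replicate. Posterior replicate 1 as the sole posterior library was added after seeing the data, and its spread was then assumed to be that of the anterior libraries. The results of some genes in the pathway list are not reported here.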

Additional observations from a re-analysis of the deposited data

How the results depend on the processing

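The 8 members tested kept their sign in every setting that tested them, which describes genes chosen on this contrast, and the number called stayed at 8 or rose to 10, except that 1 member (Pax3) was left to test with at least 10 counts required in every library, since that filter drops genes near 0 in 1 region. Over all genes, 1169 were called, 1978 by DESeq2 and 2162 without the low-count filter. Leaving out 1 replicate gave 528 to 7309 genes, with 7309 without posterior replicate 1, and 542, 528 and 670 without anterior replicates 1, 2 and 3 and 673 without posterior replicate 2. Without posterior replicate 1, all posterior libraries were of low multimapping and no anterior library was. Region and library group therefore cannot be told apart in that setting. The cause of these differing counts was not tested. Pathway genes higher in the posterior palate numbered 11, 6 with the filter in every library, and 8 to 21 with 1 replicate left out (21 without posterior replicate 1). The anterior palate had 6 higher pathway genes, 10 with the library-group term (for the libraries of low multimapping), 10 with posterior replicate 1 alone, and 5 to 10 with 1 replicate left out (10 without posterior replicate 1).

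Of 27 pathway genes that the naming rule took, 5 that were not called changed sign in some setting and 4 called genes lost their call in some (Igf2, Twist1, Heyl and Jam3). With the library-group term and with posterior replicate 1 alone, log2 fold changes became -0.16 and -0.17 for Eya4, 0.053 and 0.049 for Tcf3, and -0.18 and -0.19 for Kirrel. With 1 replicate left out, Cxcl12 ranged from -0.23 to 0.13, Tcf4 from -0.064 to 0.27 and Tcf3 from -0.090 to 0.018.

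Deviations of same-numbered libraries from their region means correlated at -0.053, 0.045 and 0.036. These values cannot decide whether same-numbered libraries are paired. Each region has only 3 libraries, and posterior replicate 1 differed from posterior replicates 2 and 3 more than those did from each other. The chi-square per gene was 48.5 and 61.3 against 9.30. With the replicate block 829 genes were called, including 8 members and 9 and 6 pathway genes higher in the posterior and anterior palate. Igf2 and Jam3 were not called with it (adjusted p = 0.0622 and 0.0627 by edgeR). At this depth, the regional difference of Tcf21 and Myf6 rests on 12 and 14 reads.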
